A study of Mus musculus with 9 samples.

Results

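The mouse mitochondrial genome carries 37 annotated genes, and 9 of them were described here across 9 libraries made from sorted neuronal nuclei. These 9 members were mt-Rnr1, mt-Rnr2, mt-Nd1, mt-Nd2, mt-Nd4, mt-Nd5, mt-Nd6, mt-Co1 and mt-Cytb, chosen by name out of 55401 annotated genes as a measure of RNA from outside the nucleus that was carried along with it. Nuclei positive for NeuN, a neuronal nuclear protein, had been sorted from cortex of mice aged 7 to 9 months. The 3 groups of 3 libraries were untreated wild-type (WT) animals, P301S Tau transgenic animals given a scrambled peptide, and P301S Tau transgenic animals given the Cdk5i peptide. Both peptides were injected into the peritoneum at 20 mg/kg every other day. P301S is a mutant form of the human protein tau. The labels name neither the transgene's promoter nor the mouse strain. Wild-type animals received no injection, so genotype and injection cannot be told apart wherever wild type is compared. The labels do not state that libraries of a group are separate animals, and p-values then reflect only library spread, which may be technical.

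Mitochondria lie in the cytoplasm and transcribe their own small genome there. Its strands are read as long precursors, from which ribosomal RNAs (rRNAs), transfer RNAs (tRNAs) and messenger RNAs (mRNAs) are cut. The mRNAs encode core subunits of respiratory complexes I, III, IV and V, whose other subunits come from nuclear genes. Mammalian chromosomes also carry old insertions of mitochondrial DNA, and reads from a gene cannot be told apart from reads of an identical insertion.

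All 13 mitochondrial mRNA genes were listed in the files, but counts were found almost only in the 7 mRNA members. Another 5, mt-Co2, mt-Co3, mt-Atp6, mt-Atp8 and mt-Nd4l, had 0 counts in each of the 9 libraries. The remaining gene, mt-Nd3, had 0 to 2 counts. A count of 0 allows up to 3 counts, which was 0.112 to 0.139 CPM (counts scaled to a common library size) depending on the library, for counting error only. By contrast, the least counted member, mt-Nd6, had 32 to 57 counts. The genes at or near 0 form the middle stretch of the mitochondrial genome, from mt-Co2 to mt-Nd4l.

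That stretch has an annotated copy on chromosome 1. Per the files' GRCm38 coordinates, 7 pseudogenes lie at chr1:24611535-24616197 on the minus strand, and follow the order from mt-Co1 to mt-Nd4. Over 4140 aligned bases they differed from the mitochondrial genes at 2 positions. One is A1066T in mt-Co1 against Gm29216 and the other is T3C in mt-Nd3 against Gm28438, with the mitochondrial base first and positions counted from 1 at the gene's start. The 7 pseudogenes together held 3 counts over the 9 libraries. Reads were counted without the option that admits multiply mapped reads, per the file headers, so a read pair that fits both places equally well was in neither count.

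The sequences below show what a read of 40 bases could tell apart. Each pair gives a stretch of a mitochondrial gene and the same stretch of its nuclear copy, 5′ to 3′, from GENCODE M21 transcripts on GRCm38, with bases that differ in capitals. In mt-Nd4 the capitals instead mark the bases past the end of the copy. The first pair is identical throughout and stands for the genes at 0.
mt-Co2, bases 1 to 60 (MT:7013-7072): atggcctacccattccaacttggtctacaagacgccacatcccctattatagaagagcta
Gm28661, chromosome 1: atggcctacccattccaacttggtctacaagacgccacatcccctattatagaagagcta
The next pair holds the base that separates mt-Nd3 from its copy.
mt-Nd3, bases 1 to 60 (MT:9459-9518): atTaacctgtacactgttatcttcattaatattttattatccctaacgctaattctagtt
Gm28438, chromosome 1: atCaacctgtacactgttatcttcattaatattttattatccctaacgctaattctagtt
The third pair is the point in mt-Nd4, a member, where the chromosome 1 copy ends.
mt-Nd4, bases 847 to 906 (MT:11013-11072): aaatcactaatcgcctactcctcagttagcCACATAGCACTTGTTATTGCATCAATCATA
Gm28439, chromosome 1: aaatcactaatcgcctactcctcagttagc
The last pairs show members beside less similar copies on other chromosomes.
mt-Co1, bases 31 to 90 (MT:5358-5417): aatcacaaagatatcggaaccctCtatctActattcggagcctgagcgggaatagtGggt
Gm13340, chromosome 2: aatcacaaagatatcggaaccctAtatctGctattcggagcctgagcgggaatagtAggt
mt-Nd5, bases 761 to 820 (MT:12502-12561): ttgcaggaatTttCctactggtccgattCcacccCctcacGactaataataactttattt
Gm4076, chromosome 13: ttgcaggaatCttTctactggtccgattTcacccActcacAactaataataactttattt

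Every 40-base window of each mitochondrial gene was searched for in all other annotated transcripts. All windows of mt-Co2 (100%) were found elsewhere, as were 99.5% of those of mt-Atp6, 99.9% of mt-Co3, 98.8% of mt-Nd4l and 98.1% of mt-Nd3. These are 5 of the 6 mRNA genes that were no members. Among the members the share was 62.5% for mt-Nd4, 57.0% for mt-Co1, 12% for mt-Nd5 and 10.1% for mt-Nd2. It was 1.7% for mt-Rnr2, 1.4% for mt-Cytb, and 0% for mt-Rnr1, mt-Nd1 and mt-Nd6. No other annotated transcript held 502 of the 1339 windows of mt-Nd4 and 648 of the 1506 of mt-Co1. Pairs were counted, so a read in a shared window can still be placed by its mate, and the windows do not fix which pairs were counted.

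The exception was mt-Atp8, whose windows were shared to only 2.4% although its count was 0 in every library. It overlaps mt-Atp6 by position (MT:7766-7969 against MT:7927-8607). On chromosome 1 the copies of mt-Co2 and mt-Atp6 are separated by 233 bases with no annotated copy, and the corresponding bases on the mitochondrial genome also number 233. Sequence outside annotated transcripts was not searched, so whether a copy of mt-Atp8 lies there was not tested. The tRNA genes, of 59 to 75 bases, were counted little: 11 of 22 had 0 counts in all 9 libraries. The highest was mt-Tp, the proline tRNA gene, with 5 to 25 counts.

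**Figure D1:**
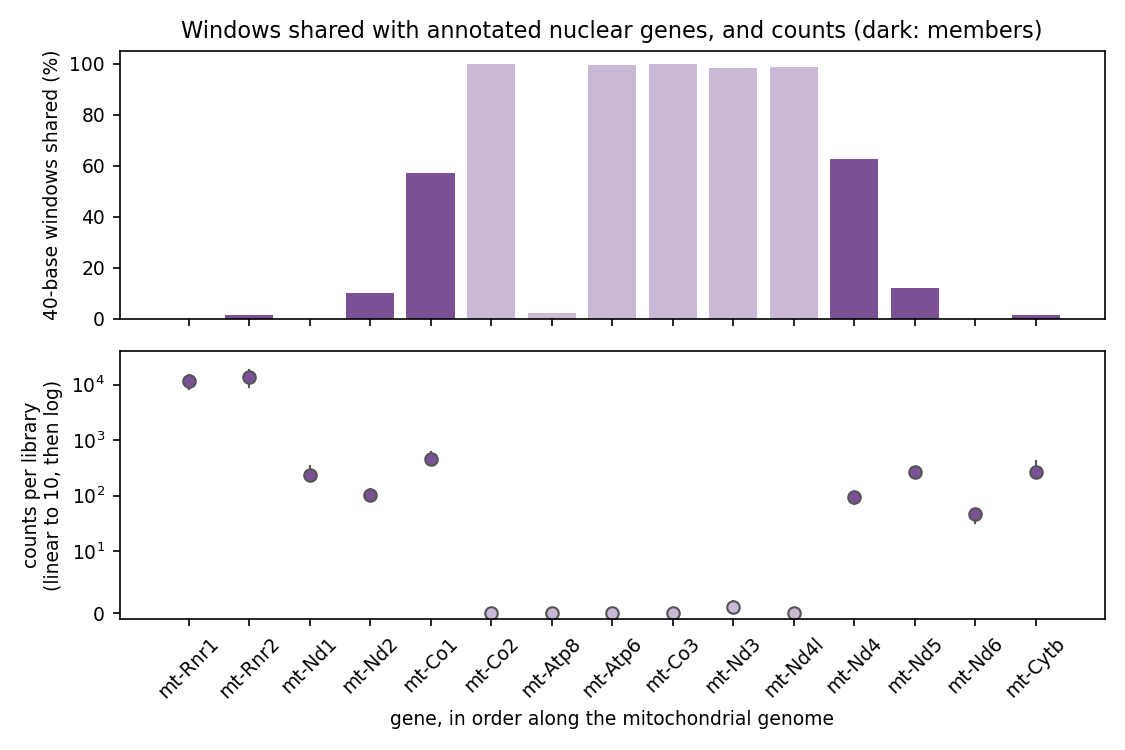
The upper bars give, for the 15 rRNA and mRNA genes in their order along the mitochondrial genome, the percentage of 40-base windows also found in another annotated transcript. The lower points give the median count over 9 libraries, with a line from the lowest to the highest (linear up to 10, then log). The genes at 0 or 1 count lie between mt-Co1 and mt-Nd4, and all but mt-Atp8 share at least 98.1% of their windows.

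Total counts ran from 21584712 to 26715938 per library, and all 9 members passed the low-count filter that kept 16046 genes. Neuronal markers (8 genes, summed) stood at 5748 to 6791 CPM in all libraries, although Tubb3 was at 0 throughout. Against this, 14 oligodendrocyte markers stood at 156 to 214 CPM, 10 microglial markers at 53.7 to 159 CPM and 9 endothelial markers at 3.35 to 5.41 CPM. The 10 astrocyte markers summed to 362 to 567 CPM, most of it from Slc1a2. Genes of nuclear ribosomal RNA took 0.771 to 3.06% of counts, with the highest share in wild-type replicate 3.

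The members together took a small part of each library. Their share of all counts was 0.117, 0.0921 and 0.127% in wild-type libraries, 0.135, 0.137 and 0.0988% in the scrambled-peptide libraries and 0.0793, 0.108 and 0.130% in the Cdk5i libraries. The lowest and the highest shares thus fell in the P301S groups, and all 3 groups overlapped. Counting error was small against this spread: the 95% Wilson interval of the lowest library was 0.0781 to 0.0804%, and that of the highest 0.135 to 0.138%. Reads copied by PCR are not independent molecules, so such intervals cover counting error only.

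Group means were 0.112 ± 0.0178% in wild-type libraries, 0.124 ± 0.0214% in the scrambled-peptide libraries and 0.106 ± 0.0255% in the Cdk5i libraries (SD, n = 3 each). The difference between scrambled peptide and wild type was 0.0117 percentage points (exact permutation test, two-sided, p = 0.5). Between Cdk5i and scrambled peptide it was -0.0176 points (exact permutation p = 0.5), and between Cdk5i and wild type -0.00593 points (exact permutation p = 0.8). With 3 libraries against 3 the smallest p possible is 0.1. Over the 3 groups at once, where p could have reached 0.00357, the exact permutation test gave p = 0.618. No difference in the mitochondrial share was detectable beyond the spread between libraries. In such bulk libraries, fewer cells of a type and less RNA per cell cannot be told apart.

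Ribosomal RNA made up nearly all of the members' counts. The genes differ in how far reads can be told from nuclear copies. Shared windows were 0% for mt-Rnr1 and 1.7% for mt-Rnr2, and 0 to 62.5% for the 7 mRNA members. The mRNA genes that were no members, at or near 0 counts, are not in these values. The part of shared sequence in the rRNA share was not tested. The members mt-Rnr1 and mt-Rnr2 held between 93.2% (Cdk5i replicate 1) and 95.1% (wild-type replicate 3) of the members' counts. The 7 mRNA members took 0.00537 to 0.00883% of all counts. There were 15.3 to 19.6 rRNA counts for each mRNA count in wild-type libraries, 14.5 to 16.2 in the scrambled-peptide libraries and 13.8 to 18.9 in the Cdk5i libraries. The ranges overlapped, and the log2 ratio gave exact permutation p-values of 0.4 for scrambled peptide against wild type, 0.9 for Cdk5i against scrambled peptide and 0.6 for Cdk5i against wild type. The test over 3 groups gave an exact permutation p of 0.621.

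**Figure D2:**
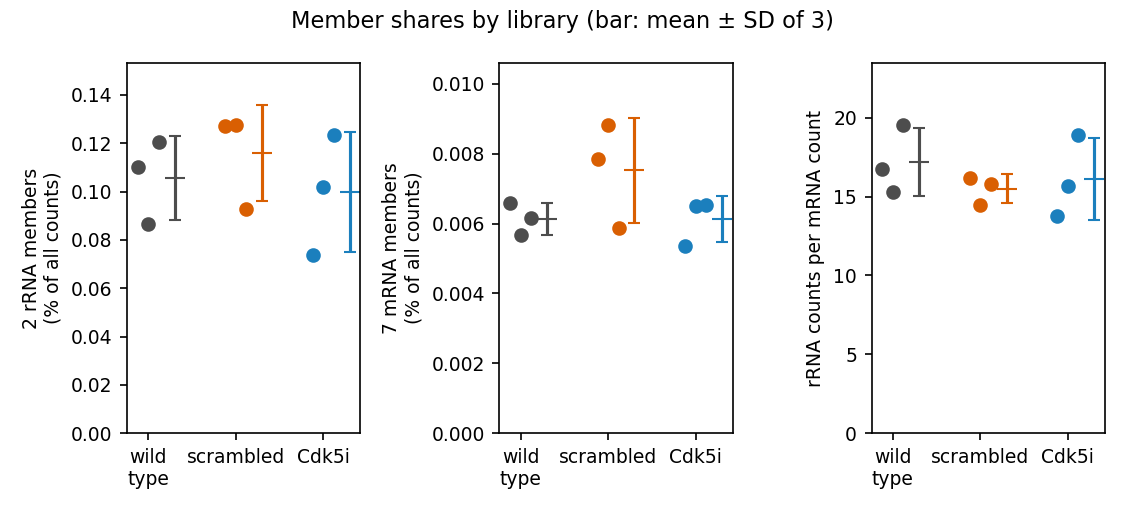
Each point is 1 library. The panels give the 2 rRNA members and the 7 mRNA members as a percentage of all counts, and the rRNA counts per mRNA count, with mean ± SD of 3 libraries beside each group. The groups overlap in all panels, and scrambled peptide replicates 1 and 2 hold the highest mRNA shares, up to 0.00883%.

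The values that follow are CPM on library sizes scaled by TMM, a normalization to the typical gene. The small-subunit rRNA gene mt-Rnr1 (ENSMUSG00000064337, MT:70-1024) stood at 520.5, 426 and 586 CPM in wild-type libraries, 569, 544 and 465 CPM with scrambled peptide, and 367, 448 and 496 CPM with Cdk5i. All groups overlapped, with the lowest library in the Cdk5i group and the highest in wild type. The large-subunit gene mt-Rnr2 (ENSMUSG00000064339, MT:1094-2675) stood at 613, 464 and 631 CPM in wild-type libraries, 654, 666 and 470.1 CPM with scrambled peptide, and 401, 588 and 704 CPM with Cdk5i. Its lowest and highest libraries were both in the Cdk5i group. The count of mt-Rnr2 per count of mt-Rnr1 was 1.08 to 1.18 in wild-type libraries, 1.01 to 1.23 in the scrambled-peptide libraries and 1.09 to 1.42 in the Cdk5i libraries. This ratio was highest in Cdk5i replicates 2 and 3, while Cdk5i replicate 1 lay within the wild-type range.

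Of the members, 5 encode subunits of complex I, the entry point of electrons from NADH. The most counted per base, mt-Nd1 (ENSMUSG00000064341, MT:2751-3707), stood at 10.4, 9.18 and 9.08 CPM in wild-type libraries, 13.1, 14.0 and 10.03 CPM with scrambled peptide, and 9.06, 9.87 and 9.17 CPM with Cdk5i. Each scrambled-peptide library was above each Cdk5i library, whereas scrambled replicate 3 lay within the wild-type range. The gene mt-Nd5 (ENSMUSG00000064367, MT:11742-13565), a proton-pumping subunit, stood at 12.8, 10.3 and 10.7 CPM in wild-type libraries, 12.7, 11.8 and 10.4 CPM with scrambled peptide and 9.42, 11.8 and 11.3 CPM with Cdk5i. It varied least of the members, by 1.364-fold from the lowest to the highest library.

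Another complex I gene, mt-Nd2 (ENSMUSG00000064345, MT:3914-4951), stood at 5.17, 3.93 and 4.68 CPM in wild-type libraries, 4.28, 5.75 and 3.73 CPM with scrambled peptide, and 4.60, 3.62 and 4.54 CPM with Cdk5i. The gene mt-Nd4 (ENSMUSG00000064363, MT:10167-11544) stood at 4.50, 3.32 and 4.22 CPM in wild-type libraries, 4.40, 4.43 and 3.93 CPM with scrambled peptide, and 3.21, 4.38 and 3.05 CPM with Cdk5i. Both overlapped between all groups. The only mRNA encoded on the other strand, mt-Nd6 (ENSMUSG00000064368, MT:13552-14070), stood at 1.85, 1.69 and 1.498 CPM in wild-type libraries, 1.81, 2.50 and 1.94 CPM with scrambled peptide, and 1.43, 1.94 and 1.99 CPM with Cdk5i. Its end overlaps mt-Nd5 by position, but the counting used strand, per the file headers. Counting error alone gives mt-Nd6 a coefficient of variation of 15.1%, against 17.0% observed over the 9 libraries, so little of its spread exceeded sampling noise.

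The complex III gene mt-Cytb (ENSMUSG00000064370, MT:14145-15288), which encodes cytochrome b, stood at 11.3, 10.9 and 11.0 CPM in wild-type libraries, 15.3, 18.5 and 10.6 CPM with scrambled peptide, and 11.8, 13.8 and 14.1 CPM with Cdk5i. All 3 Cdk5i libraries were above all 3 wild-type libraries, while scrambled replicate 3 was below them all. As a part of the 7 mRNA members' counts, mt-Cytb made up 16.8 to 18.6% in wild-type libraries, 17.9 to 22.1% in the scrambled-peptide libraries and 20.8 to 22.1% in the Cdk5i libraries. The wild-type and Cdk5i ranges of this share did not overlap, a feature singled out after its values were seen and not tested. It was not particular to mt-Cytb. The share of mt-Co1 also separated these groups, in the opposite direction. It ran from 31.9 to 33.9% for the wild-type group, against 29.3 to 31.3% for the Cdk5i group. Both shares are parts of the same total and are not independent. How often such shares separate groups was not tested. The complex IV gene mt-Co1 (ENSMUSG00000064351, MT:5328-6872), the catalytic subunit of cytochrome c oxidase, stood at 21.6, 19.1 and 21.1 CPM in wild-type libraries, 23.95, 26.6 and 18.5 CPM with scrambled peptide, and 16.3, 20.7 and 19.4 CPM with Cdk5i. Scrambled replicates 1 and 2 were its highest libraries, and scrambled replicate 3 lay below the wild-type range.

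**Figure D3:**
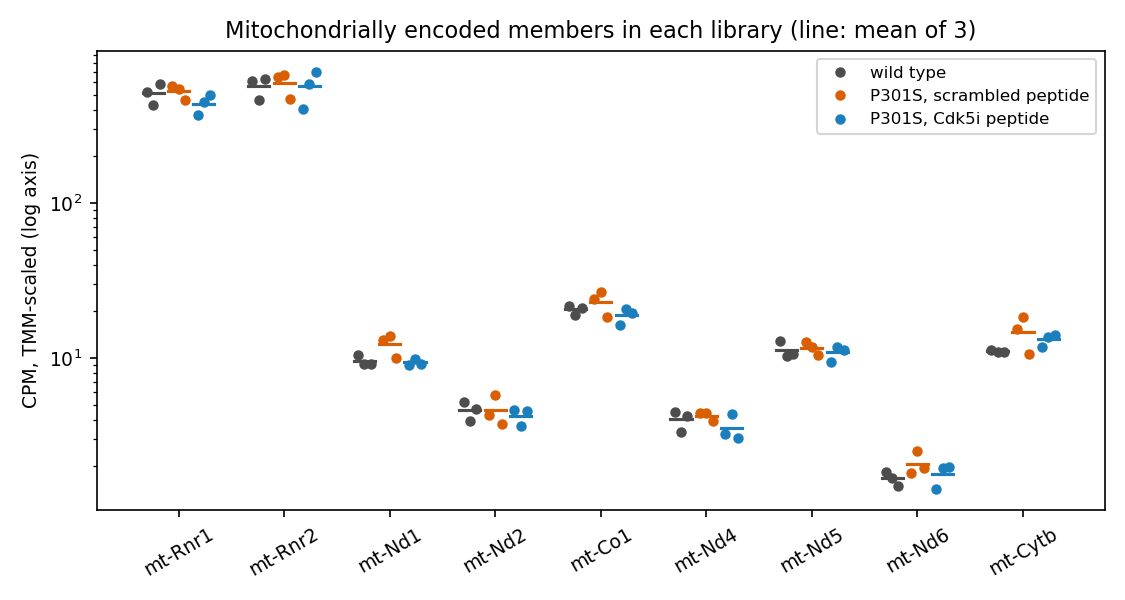
Each point is 1 library and each line a group mean of 3, in TMM-scaled CPM on a log axis. The rRNA genes lie at 367 to 704 CPM and the mRNA genes at 1.43 to 26.6 CPM. Scrambled peptide replicates 1 and 2 are high for mt-Nd1, mt-Co1 and mt-Cytb, and replicate 3 is not.

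Levels of different genes were compared per kilobase of gene, as means over 9 libraries. They were 514 ± 74.9 CPM per kilobase for mt-Rnr1 and 365 ± 66.8 for mt-Rnr2 (SD, n = 9), and mt-Rnr1 was the higher in 9 of 9 libraries. The highest mRNA was mt-Co1 at 13.5 ± 1.98 CPM per kilobase, so mt-Rnr2 exceeded it 23.8- to 35.4-fold in each library. Next came mt-Cytb at 11.4 ± 2.32 and mt-Nd1 at 10.9 ± 1.91 CPM per kilobase, which were not separated: mt-Cytb was the higher in 5 of 9 libraries. They were followed by mt-Nd5 at 6.18 ± 0.632, mt-Nd2 at 4.31 ± 0.663, mt-Nd6 at 3.56 ± 0.606 and mt-Nd4 at 2.86 ± 0.424 CPM per kilobase. Of these, mt-Nd2 was above mt-Nd6 in 7 of 9 libraries and mt-Nd6 above mt-Nd4 in 8 of 9, so these neighbours were not separated either.

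The order of the lower genes differed on a scale that leaves out the windows shared with nuclear copies. Per 1000 unshared windows, a scale added after the data were seen and one that disregards placement by the mate, mt-Nd4 stood at 7.85 ± 1.17 CPM and moved from rank 9 to rank 6. On that scale mt-Co1 reached 32.1 ± 4.73 CPM, still at rank 3, and mt-Nd6 was last at 3.85 ± 0.655 CPM (SD, n = 9).

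The first comparison, scrambled peptide against wild type, addresses the P301S transgene together with injection. None of the 9 members passed edgeR's quasi-likelihood test at an adjusted p of 0.05, which 0.081% of the 16046 genes tested passed. Limma-voom also called 0 members, and DESeq2 called 0 of the 8 to which it gave an adjusted p, which left out mt-Nd6. The log2 fold change was above 0 for 8 of 9 members, and 48.3% of all genes tested were lower. The members' median was 0.08, beside a median of 0.0084 over all genes tested. The largest differences were those of mt-Cytb, 0.42 ± 0.17 (SE, 95% interval 0.06 to 0.78, edgeR adjusted p = 0.432), and mt-Nd1, 0.37 ± 0.13 (0.10 to 0.64, edgeR adjusted p = 0.359). These were the 2 members with an unadjusted p under 0.05, a threshold that 10.1% of all genes passed. In 0 members did the groups not overlap, against 16.3% of all genes. The direction rested on wild-type replicate 2, without which 5 of 9 members were lower and the median was -0.01. Over the other alternatives the median reached 0.21. The 2 rRNA genes were at 0.04 ± 0.14 and 0.07 ± 0.23.

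Oligodendrocyte markers were higher with scrambled peptide in 9 of the 10 tested, with a median log2 fold change of 0.31 and 0 past the test. Their summed level ranged from 159 to 167 CPM in the wild-type libraries and from 188 to 214 CPM in the scrambled-peptide libraries, so the groups did not overlap. Of single genes tested, 16.3% did not overlap in this comparison. Most of the sum came from Enpp2 and Mbp, with means of 80.9 and 63.1 CPM in wild-type libraries, beside a mean sum of 162 CPM. With scrambled peptide they were at 99.7 and 77.1 CPM, beside a mean sum of 202 CPM. None of the 14 was at 0 in all libraries. Their relation with the members' share over libraries is given further below, and their part in the members' fold changes was not tested.

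The second comparison, Cdk5i against scrambled peptide within P301S animals, addresses the peptide itself. All 9 members were lower with Cdk5i, none past the threshold, which 0.0125% of genes passed in edgeR. DESeq2 and limma-voom also called 0. The median log2 fold change was -0.21, with a range of -0.40 to -0.08, while the median over all genes tested was -0.0095 and 52.8% of all genes were lower. The members share libraries and are not independent, so 9 of 9 is a description. The lowest were mt-Nd1 at -0.40 ± 0.13 (SE, 95% interval -0.67 to -0.13, edgeR adjusted p = 0.768) and mt-Co1 at -0.29 ± 0.13 (-0.57 to -0.01, edgeR adjusted p = 0.922). These 2 members had an unadjusted p under 0.05, as did 5.33% of all genes. The groups did not overlap for 1 member, mt-Nd1, against 10.3% of all genes. Without scrambled replicate 2 the median was -0.08 and 6 of 9 members were lower.

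Nuclear genes of the same complexes were examined beside the members. Of 71 tested genes for nuclear subunits of complexes I, III, IV and V, 57 were lower with Cdk5i than with scrambled peptide, 0 passed the test, and the median log2 fold change was -0.11. By complex, 29 of 35 genes were lower for complex I, 7 of 9 for complex III, 9 of 11 for complex IV and 12 of 16 for complex V. Among them, Ndufs4, a complex I accessory subunit, was at -0.04 and Uqcrc1, a complex III core subunit, at -0.11. Genes that transcribe, process, stabilize or modify mitochondrial RNA, or that copy mitochondrial DNA, were lower in 19 of 33 cases, with a median of -0.04. In that list Lrpprc, which stabilizes mitochondrial mRNAs, was at 0.05 (edgeR adjusted p = 0.970) and Polg, the mitochondrial DNA polymerase, at -0.09 (edgeR adjusted p = 0.958).

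Genes outside the respiratory chain were also lower with Cdk5i. This was so for 59 of 74 cytosolic ribosomal protein genes (median -0.12) and 26 of 30 genes of abundant short mRNAs (median -0.12). In each list 0 passed the test. Short mRNAs is the name of that list here, and its genes were counted with their introns. Nuclear-retained RNAs were lower in 2 of 8, with a median of 0.05 and Malat1 at 0.18 (edgeR adjusted p = 0.958). Against wild type, scrambled peptide gave lower values for 24 of 71 respiratory chain genes and 31 of 74 ribosomal protein genes. It also did so for 12 of 30 short mRNAs and 11 of 33 genes of the mitochondrial DNA and RNA machinery. None of these passed the test, and 48.3% of all genes tested were lower in that comparison. Oligodendrocyte markers were lower with Cdk5i than with scrambled peptide in 7 of the 10 tested, with a median of -0.26 and 0 past the test. Their sum was 156 to 201 CPM with Cdk5i, overlapping the scrambled-peptide range. All 13 tested genes of nuclear ribosomal RNA were lower with Cdk5i (median -0.93, 2 with an unadjusted p under 0.05, 0 past the test), and 12 of the 13 were higher with scrambled peptide than in wild type (median 0.62, 0 past the test). Their summed share, nearly all from CT010467.1, was 0.771 to 1.57% of counts in the Cdk5i libraries, 1.15 to 1.35% in the scrambled-peptide libraries and 1.13 to 3.06% in wild type, so for scrambled peptide against wild type the sum was lower although the median was higher. The relation of either list with the members' share over libraries is given further below, and the part of either in the members' fold changes was not tested.

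The third comparison, Cdk5i against wild type, shares its libraries with both others. Here 7 of 9 members were lower, as were 51.2% of all genes tested. The members' median log2 fold change was -0.05, beside -0.0051 over all genes tested. None passed in edgeR (0.0748% of genes did) or limma-voom. DESeq2 called 0 of the 6 members to which it gave an adjusted p, which left out mt-Nd2, mt-Nd4 and mt-Nd6. No member had an unadjusted edgeR p under 0.05, which 11.0% of genes had. The groups did not overlap for 1 member, mt-Cytb, against 16.3% of all genes. It was higher with Cdk5i by 0.26 ± 0.17 (SE, 95% interval -0.11 to 0.62, edgeR adjusted p = 0.607). The most negative was mt-Rnr1 at -0.23 ± 0.14 (edgeR adjusted p = 0.588). The median ranged from -0.14 to 0.04 over the alternatives and was above 0 only without wild-type replicate 1, where 4 of 9 members were lower. Of the respiratory chain genes 43 of 71 were lower, and of the ribosomal protein genes 57 of 74. Of the short mRNAs 19 of 30 were lower, and of the mitochondrial DNA and RNA machinery 16 of 33. In each list 0 passed the test. These counts stand beside the 51.2% of all genes.

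The precision set a bound on what could be seen. The median standard error of a member's log2 fold change was 0.17, 0.16 and 0.17 in the 3 comparisons. The widest intervals were those of mt-Rnr2, from -0.62 to 0.46 for Cdk5i against scrambled peptide, despite 8990 to 18430 counts per library. Its coefficient of variation over the 9 libraries was 18.3%, while counting error alone gives 0.853%. Spread between libraries rather than depth therefore set its interval.

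**Figure D4:**
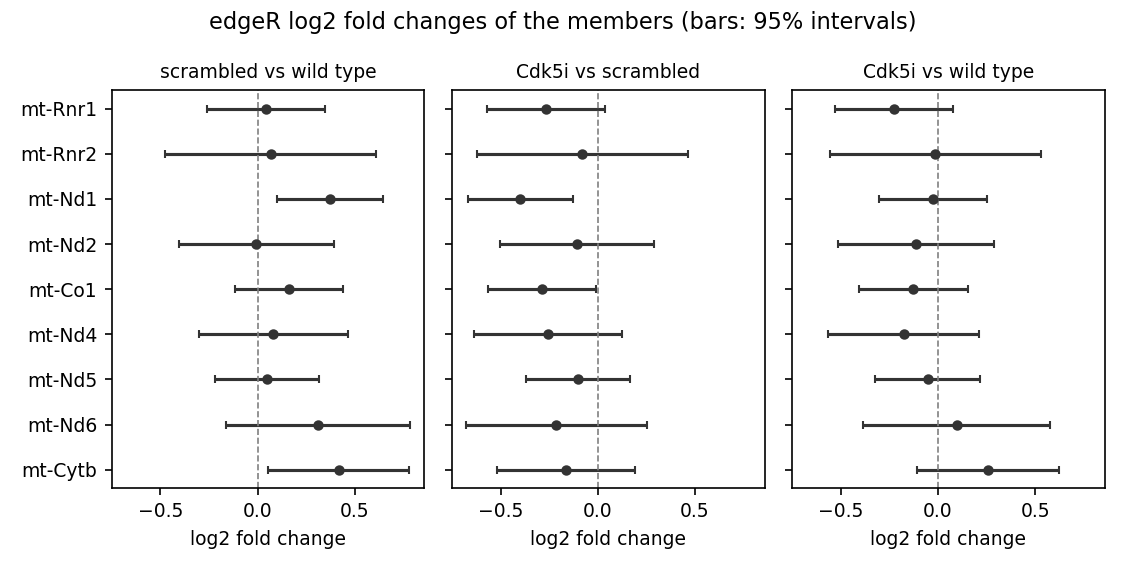
Points are edgeR log2 fold changes and bars their 95% intervals for the 9 members in 3 comparisons, from 3 libraries a group. All 9 points lie below 0 for Cdk5i against scrambled peptide, and the interval of mt-Nd1, -0.67 to -0.13, lies farthest from 0.

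The members varied together between libraries. All 36 pairs had a positive Pearson r of their log2 CPM over the 9 libraries, with a median of 0.58 and a range of 0.20 to 0.85, as a description of genes that share their libraries. The mRNA share and the rRNA share of counts had r = 0.789 and Spearman's rho = 0.917 (exact permutation p = 0.00882, adjusted over 7 relations p = 0.0154). Libraries low in mitochondrial rRNA were thus low in mitochondrial mRNA.

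The mitochondrial share was set against the summed shares of nuclear gene lists in the same libraries. Cytosolic ribosomal protein genes took 0.0291 to 0.0424% of counts, and their share had r = 0.796 and rho = 0.933 with that of the members (exact permutation p = 0.00422, adjusted p = 0.0148). Nuclear respiratory chain genes took 0.0856 to 0.104%, with r = 0.796 and rho = 0.933 (exact permutation p = 0.0064, adjusted p = 0.0149). Nuclear-retained RNAs, most of it Malat1, took 1.97 to 2.33%, with r = -0.877 and rho = -0.80 (exact permutation p = 0.00214, adjusted p = 0.0148). Libraries with more mitochondrial RNA thus held more counts of ribosomal protein and respiratory chain genes and fewer of nuclear-retained RNAs. Nuclear genes were counted with their introns, so spliced and unspliced RNA cannot be told apart in these lists. All these shares have the same denominator, the library total.

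The other relations did not pass. Abundant short mRNAs gave r = 0.560 and rho = 0.467 (exact permutation p = 0.120, adjusted p = 0.168), nuclear ribosomal RNA genes r = 0.501 and rho = 0.583 (exact permutation p = 0.162, adjusted p = 0.189). Oligodendrocyte markers gave r = -0.010 and rho = 0.217 (exact permutation p = 0.979). Within groups, as deviations from the group means, the oligodendrocyte markers gave r = -0.549 (exact permutation p = 0.121, adjusted p = 0.141) and rho = -0.70 (exact permutation p = 0.0432, adjusted p = 0.0606). For nuclear ribosomal RNA genes r within groups was 0.649 and rho 0.70 (exact permutation, adjusted p = 0.0756 and 0.0606), and for short mRNAs 0.458 and 0.317 (adjusted p = 0.223 and 0.410).

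The 4 relations that passed were repeated without wild-type replicate 2 and Cdk5i replicate 1, the libraries farthest from the median share. That leaves fewer libraries and a narrower range of shares. A missed threshold there does not show that a relation rests on the left-out libraries. Without them r was 0.687 for mitochondrial mRNA and rRNA, 0.724 for ribosomal protein genes, 0.689 for respiratory chain genes and -0.619 for nuclear-retained RNAs. The exact permutation p-values, adjusted over the 7 relations, were then 0.17, 0.17, 0.17 and 0.246, none past the threshold. In the same order rho was 0.821, 0.893, 0.857 and -0.571 (exact permutation, adjusted p = 0.0796 for the first 3 and 0.35 for the last), against 0.917, 0.933, 0.933 and -0.80 over all 9 libraries. Within groups, as deviations from the group means, r was 0.795, 0.762, 0.799 and -0.888 in the same order (exact permutation, adjusted p = 0.0204 each). The matching rho was 0.667, 0.80, 0.85 and -0.70, with adjusted exact permutation p-values of 0.0687, 0.0484, 0.0425 and 0.0606. On the log2 scale of TMM-scaled CPM only the relation with nuclear-retained RNAs passed.

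**Figure D5:**
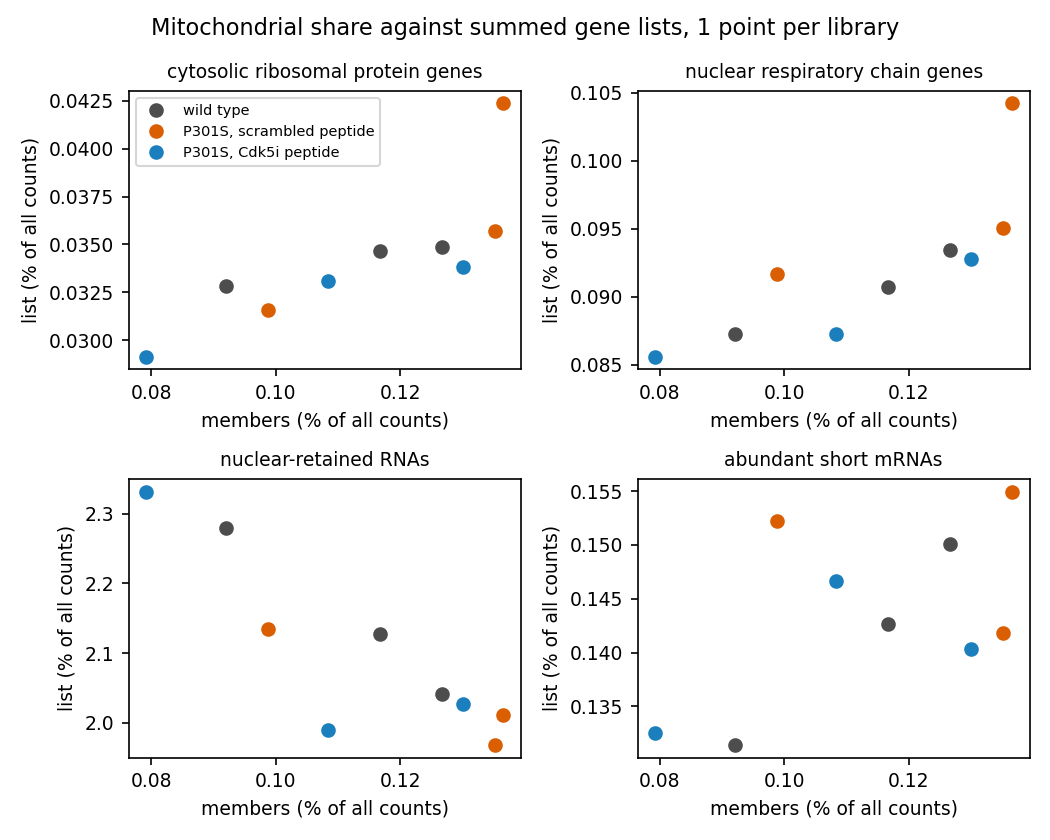
Each point is 1 library, with the members' share of counts on the horizontal axis and the share of a gene list on the vertical axis, both in percent. Ribosomal protein and respiratory chain genes are high where the members are high, and nuclear-retained RNAs are low there. Cdk5i replicate 1 is at the left end with a member share of 0.0793%.

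The nuclear genes whose log2 CPM followed the summed members most closely over the 9 libraries were Otulinl (r = 0.960), Caml (0.951), Itm2c (0.945) and Sfr1 (0.926). They were followed by Rcn1 (0.917), Endod1 (0.911), Pithd1 (0.910) and Slc18a2 (0.909). These are the 8 highest among 10873 candidate genes, of which 11 had r above 0.9, and they are given as a description. Itm2c stood at 54.5, 46.4 and 56.0 CPM in wild-type libraries, 55.8, 56.9 and 51.4 CPM with scrambled peptide and 45.9, 52.8 and 53.3 CPM with Cdk5i. It was lowest in wild-type replicate 2 and Cdk5i replicate 1, in which the members were also low. That follows from its choice by r over the same libraries and is no separate observation. Slc18a2, the vesicular monoamine transporter, ranged from 1.34 CPM in Cdk5i replicate 1 to 5.96 CPM in Cdk5i replicate 3.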

How the data were processed

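RNA of sorted nuclei was sequenced as 40+40-base read pairs after SMARTer stranded total RNA library preparation, per the labels' protocols. The deposited values are raw counts per gene, made by the authors with featureCounts 2.0.0 on whole genes (introns included), read pairs and reversed strand, per the file headers, which name Ensembl release 102. Listed in the submitters' processing notes are STAR 2.7.9a, DESeq2 1.36.0, Subread 2.0.0 and the build GRCm38. Settings for multiply mapped reads in the aligner are not given in the sources used here.

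Counts were fitted in edgeR 4.0.16 (R 4.3.3): filterByExpr with a minimum of 10 counts, TMM, 1 robust quasi-likelihood model of 9 libraries, and Benjamini-Hochberg adjustment over 16046 genes at 0.05. Adjusted p-values of single genes come from this fit, apart from those given for an alternative. Those of the relations are exact permutation p-values with Benjamini-Hochberg adjustment over 7 relations. Alternatives used DESeq2 1.42.0, limma 3.58.1 (voom), other filters, normalizations and left-out libraries. Shares and relations used exact permutation tests over libraries in SciPy 1.17.1, two-sided. Copies were aligned with Biopython 1.88.

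The members and lists were chosen with earlier results of these data known. Named genes are the members, at most 2 genes of highest mean count per list, and the 8 nuclear genes with the highest r (mean count at least 50). The planned ribosomal RNA symbols matched nothing, so 354 genes of biotype rRNA were used, a choice made after the files were seen, of which CT010467.1 held 99.7% of counts. Atp5pb and Prorp matched no gene.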

Additional observations from a re-analysis of the deposited data

How the results depend on the processing

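Over 15 alternatives no member with an adjusted p passed the threshold, except mt-Cytb for scrambled peptide against wild type with no low-count filter (log2 fold change 0.42, edgeR adjusted p = 0.0377; members called 1 against 0). With a filter applied, the lowest adjusted p over the alternatives was 0.118, 0.193 and 0.313 in the 3 comparisons. Of 134 log2 fold changes recomputed per comparison, 12, 4 and 7 changed sign, all but 1 of them when a library was left out. With a filter of 50 counts mt-Nd6 could not be fitted. DESeq2 gave no adjusted p for 1 member in the first comparison and 3 in the third.

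Counts of called genes depended on the processing. For scrambled peptide against wild type, 13 genes became 71 with DESeq2, 5 with limma-voom, 318 with no filter, 5 with a filter of 50 counts, 6 with non-robust dispersion and 2 to 17 with 1 library of the groups compared left out. For Cdk5i against scrambled peptide, 2 became 27 with DESeq2, 159 with no filter and 2 to 18 with 1 library left out. For Cdk5i against wild type, 12 became 112 with DESeq2, 4 with limma-voom, 408 with no filter, 1 with a filter of 50 counts, 2 in a fit of the groups compared, 3 with non-robust dispersion and 2 to 7 with 1 library left out. The cause was not tested.

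With the replicate number as a block, 2 genes were called in each comparison with wild type. The numbers do not pair the libraries: same-numbered libraries correlated at -0.31 to 0.17, with 1 of 9 pairs over 0.1. Differently numbered libraries of different groups correlated at -0.151 to 0.276. For 0 libraries did every same-numbered library correlate more highly than all differently numbered ones. Scrambled replicate 1 had its highest r with wild-type replicate 1 (0.171).

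The members' share for Cdk5i against wild type ranged from -0.018 to 0.00738 percentage points with 1 library left out, turning positive without wild-type replicate 3 or Cdk5i replicate 1. The log2 rRNA to mRNA ratio for Cdk5i against scrambled peptide was -0.0485 with mt-Rnr1 alone as rRNA, and -0.0748 to 0.154 with 1 library left out, negative without scrambled replicate 2 or Cdk5i replicate 3. For Cdk5i against wild type it was -0.22 to 0.00909, positive only without Cdk5i replicate 1.

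On log2 TMM-scaled CPM the relation was r = 0.706 with ribosomal protein genes, 0.565 with respiratory chain genes and 0.734 between mitochondrial mRNA and rRNA, none past the threshold. Without the 2 farthest libraries r was 0.724, 0.689 and 0.687, -0.619 with nuclear-retained RNAs and -0.18 with short mRNAs.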
